A study of Mus musculus with 12 samples.

Results

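The mouse genes Mucl1, Dclk1, Amelx, Adra2a and Tcaf2, all best known from other tissues, were followed through cultured dendritic cells. They were chosen by their measured counts in these libraries, as genes of other tissues that were expressed in control dendritic cells and nearly silent in tolerogenic ones without or with LPS. They are 5 of the 31054 genes in the count tables, and all 5 passed the filter on low counts that left 13141 genes. Because the levels in tolerogenic and control cells chose these genes, that difference is described below without a test. The change with LPS inside control cells is not the contrast of the choice and was tested for 4 of the genes, although counts of all groups had been seen. Amelx counts as expressed in control cells mainly through those given LPS, so its change with LPS is described without a test as well.

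The study, on tolerogenic dendritic cells in acute kidney injury, sequenced messenger RNA of dendritic cells grown from bone marrow of C57BL6 mice with the wild-type genotype, enriched as live CD11c+ cells on day 7. Its 4 groups were cells given vitamin D3, IL-10 and LPS (TolDC with LPS), cells given LPS alone (BMDC with LPS), cells given vitamin D3 and IL-10 (TolDC), and cells given none of these (BMDC), with 3 libraries each. The sources used here give neither the dose nor the time of any of these agents. The labels do not say that the 3 libraries of a group came from separate cultures or animals, so a p-value here covers the spread among these libraries, and that spread may be technical.

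Dendritic cells take up antigen, sense microbial products such as lipopolysaccharide (LPS) and present antigen to T cells. Vitamin D3 and IL-10 are used in culture to hold them in a tolerogenic state, in which they restrain T cells more than they stimulate them. The 5 genes belong to no common pathway. Mucl1 encodes a small mucin-like secreted product, known in humans from glandular epithelium, and Amelx encodes amelogenin, the main protein of the enamel matrix that ameloblasts secrete. Dclk1 encodes a microtubule-binding kinase of neurons and tuft cells, Adra2a the alpha-2A adrenergic receptor, which couples to the inhibitory G protein Gi, and Tcaf2 a factor that associates with the cold-sensing channel TRPM8.

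The 12 libraries held 21844405 to 41764975 reads assigned to genes. Summed levels of 15 dendritic cell markers lay between 7569 and 13010 CPM (the counts-per-million scale, relative to the scaled library size) in every library. None of the 15 was at 0, and 2 were under 1 CPM throughout, but the sum, led by Cd74, hides shifts inside the list. Of 13 tested, 5 rose, 5 fell and 3 were not called in TolDC, and 2 rose, 10 fell and 1 was not called in TolDC with LPS (median log2 change -0.63, against 0.02 over all genes). Of all genes tested, 62.4% were called in TolDC (32% higher, 30.4% lower) and 67.9% in TolDC with LPS (34.3% higher, 33.7% lower). Among those lower in TolDC with LPS than in BMDC with LPS were Flt3 (-3.71), Dpp4 (-2.69), Zbtb46 (-1.96) and Ccr7 (-1.64), while H2-Ab1 was higher (1.37). Their part in the levels of the 5 genes was not tested. A count of 3 in 1 library is worth 0.0718 to 0.137 CPM, which is the floor below which a level was not resolved. In bulk samples such as these, fewer cells of a type and less RNA per cell cannot be told apart.

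Promoters are shown for Amelx, whose levels followed LPS most, and for Adra2a and Tcaf2, whose levels ran closest together over the libraries. RefSeq (GRCm38.p6) gave a window of 250 bases before to 50 after the start for 4 of the 5 genes, in 5 entries of 300 bases. Mucl1 was not among them. Capitals mark every match to the motifs searched. The Amelx window is chrX:169187160-169187459 on the minus strand, the Adra2a window chr19:54045009-54045308 on the plus strand and the Tcaf2 window chr6:42644992-42645291 on the minus strand.
Amelx: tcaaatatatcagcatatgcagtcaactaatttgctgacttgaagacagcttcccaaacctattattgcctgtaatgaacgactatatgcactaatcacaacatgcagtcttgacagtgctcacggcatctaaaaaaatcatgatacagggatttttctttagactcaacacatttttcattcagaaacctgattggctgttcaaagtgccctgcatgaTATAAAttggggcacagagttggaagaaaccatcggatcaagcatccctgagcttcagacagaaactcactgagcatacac
Adra2a: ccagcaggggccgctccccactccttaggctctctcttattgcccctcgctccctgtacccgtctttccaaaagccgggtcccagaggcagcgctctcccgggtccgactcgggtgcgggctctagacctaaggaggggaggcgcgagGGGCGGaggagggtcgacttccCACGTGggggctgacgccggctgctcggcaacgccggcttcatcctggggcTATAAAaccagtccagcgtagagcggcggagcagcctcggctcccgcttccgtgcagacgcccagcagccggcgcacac
Tcaf2: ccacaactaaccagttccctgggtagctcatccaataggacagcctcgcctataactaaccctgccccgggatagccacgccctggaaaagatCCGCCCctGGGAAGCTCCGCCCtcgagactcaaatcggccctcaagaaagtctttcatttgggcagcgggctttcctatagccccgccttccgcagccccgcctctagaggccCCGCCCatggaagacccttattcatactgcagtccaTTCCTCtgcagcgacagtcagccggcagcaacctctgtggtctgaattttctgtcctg

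Positions of matches are those of the first base relative to the start site, and both strands were searched. Amelx and Adra2a each held a TATA box (TATAAA), at -31 and at -29, a motif found in 13.6% of 32851 mouse promoters of this length. Adra2a also held an E-box (CACGTG, in 7.15% of promoters) at -80, which reads alike on both strands, and a GC box (GGGCGG, in 35.7%) at -102. Tcaf2 held no TATA box. Its window had GC boxes on the opposite strand at -157, -141 and -44, a kB site (found in 8.46% of promoters) at -149 whose bases run into the GC box at -141, and an ETS site of the PU.1 kind (GAGGAA, in 28.3%) on the opposite strand at -8.

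Dclk1 had 2 annotated starts. The first window (chr3:55242114-55242413, plus strand) held a half-site of the vitamin D receptor (AGGTCA, in 16.3% of promoters) at -105 and an ETS site at -166, both on the opposite strand. The second (chr3:55461478-55461777, plus strand) held AP-1 sites (TGANTCA, in 7.81%) at -59 and -20. No window held the second form of the vitamin D half-site (AGTTCA), the vitamin D DR3 element, a STAT site (TTCNNNGAA), a C/EBP site (TTGCNNAA) or an ISRE. No motif was shared by all 4 genes. A match describes letters, not binding.

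Mucl1 (ENSMUSG00000060311, chr15:103751919-103755469, minus strand, 6 merged exons in GRCm38) gave almost no reads in tolerogenic cells. GENCODE calls it protein coding, and the RefSeq promoters used here held no entry for it. It had 1, 2 and 3 reads in TolDC, against 287, 300 and 242 in BMDC. With LPS it had 3, 8 and 10 reads in TolDC, against 896, 560 and 597 in BMDC. No library of one treatment reached the range of the other. Its mean level was 0.0757 ± 0.0334 CPM in TolDC and 10.1 ± 0.348 CPM in BMDC, and with LPS 0.205 ± 0.0933 CPM in TolDC and 28.1 ± 3.05 CPM in BMDC (SD, n = 3 each). The TolDC level without LPS thus lies at or below the floor of 3 counts.

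Amelx (ENSMUSG00000031354, chrX:169176114-169187200, minus strand, 9 merged exons) had 26, 24 and 31 reads in TolDC, against 101, 88 and 63 in BMDC. With LPS it had 78, 50 and 55 reads in TolDC, against 3214, 1869 and 2012 in BMDC. Here the label under which the gene was picked holds in part. Without LPS Amelx stood at 1.03 ± 0.0565 CPM in TolDC and 3.04 ± 0.457 CPM in BMDC (SD, n = 3 each), low in both, with ranges that did not overlap. With LPS it reached 1.86 ± 0.612 CPM in TolDC and 96.5 ± 14.5 CPM in BMDC (SD, n = 3 each). Amelx lies inside Arhgap6, a GTPase-activating gene on the other strand, with 0 bases of shared exon. Reads on the strand opposite to Amelx were 14.7% of both strands in TolDC and 8.70% in BMDC, but 3.17% in TolDC with LPS and 0.949% in BMDC with LPS. The part of this in the low Amelx levels without LPS was not tested.

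Dclk1 (ENSMUSG00000027797, chr3:55242364-55539068, plus strand, 22 merged exons) had 6, 11 and 10 reads in TolDC, against 477, 501 and 378 in BMDC. With LPS it had 17, 13 and 25 reads in TolDC, against 290, 174 and 168 in BMDC. The treatments were apart in both states, and within BMDC the libraries with LPS were the lower ones. Means were 0.346 ± 0.106 CPM in TolDC and 16.5 ± 0.333 CPM in BMDC, and with LPS 0.537 ± 0.0924 CPM in TolDC and 8.59 ± 1.42 CPM in BMDC (SD, n = 3 each).

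Adra2a (ENSMUSG00000033717, chr19:54044151-54048982, plus strand, 1 exon) had 1, 4 and 3 reads in TolDC, against 100, 123 and 94 in BMDC. With LPS it had 3, 4 and 2 reads in TolDC, against 157, 102 and 111 in BMDC. The TolDC libraries held a few reads each in both states. Means were 0.103 ± 0.0619 CPM in TolDC and 3.85 ± 0.283 CPM in BMDC, and with LPS 0.0940 ± 0.0426 CPM in TolDC and 5.07 ± 0.418 CPM in BMDC (SD, n = 3 each).

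Tcaf2 (ENSMUSG00000029851, chr6:42623016-42645254, minus strand, 7 merged exons) was high in BMDC in both LPS states. It had 43, 49 and 57 reads in TolDC, against 1613, 1627 and 1144 in BMDC. With LPS it had 53, 49 and 56 reads in TolDC, against 1593, 1051 and 1110 in BMDC. Unlike Mucl1 and Adra2a, it stayed well above the floor in TolDC. Means were 1.91 ± 0.173 CPM in TolDC and 53.0 ± 3.84 CPM in BMDC, and with LPS 1.59 ± 0.179 CPM in TolDC and 51.5 ± 4.04 CPM in BMDC (SD, n = 3 each).

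**Figure D1:**
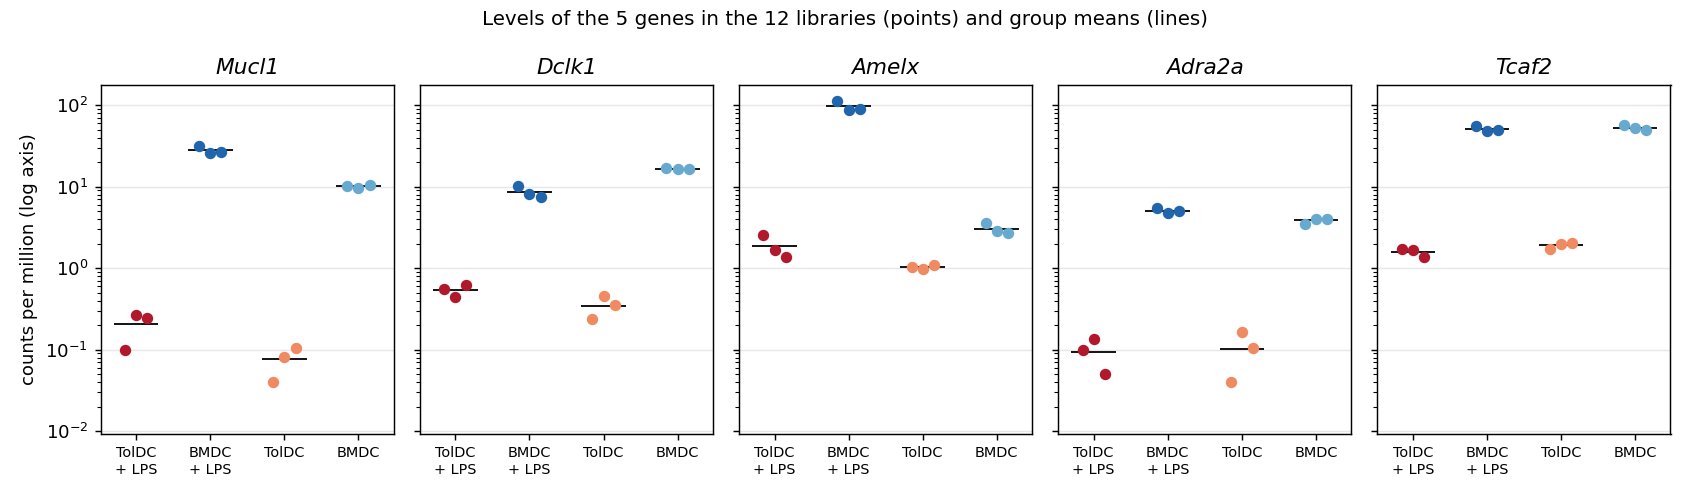
Level of each gene in the 12 libraries, in CPM on a log axis; points are libraries and lines are means of 3. In each panel the TolDC points lie below the BMDC points of the same LPS state, by the smallest step for Amelx without LPS (1.03 CPM in TolDC and 3.04 CPM in BMDC).

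Few stretches of the 5 genes were shared with others. Of windows of 50 bases along the exons, 1 of 840 in Mucl1 was shared with another gene (Mucl2), 42 of 15472 in Dclk1 (with Gm42609, an antisense gene at the locus) and 22 of 4765 in Tcaf2 (with Tcaf3). Amelx and Adra2a shared none. Mucl2, Gm42609 and Tcaf3 had at most 1 read over any group of 3 libraries.

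Set per kilobase of exon, so that genes can be compared, the 5 spanned a wide range in control cells. In BMDC with LPS the order of levels was Amelx at 96.6 CPM per kilobase, Mucl1 at 35.2, Tcaf2 at 10.8, Adra2a at 1.05 and Dclk1 at 0.562. Amelx was then at percentile 96.4 and Mucl1 at percentile 89.4 of the 13135 tested genes with a length, while Dclk1 was at percentile 19.3. In BMDC without LPS the order was Mucl1 at 12.7 CPM per kilobase, Tcaf2 at 11.1, Amelx at 3.05, Dclk1 at 1.08 and Adra2a at 0.798. The SD of Mucl1 was 0.436 and that of Tcaf2 0.804 CPM per kilobase there, so these neighbours in the order differed by less than 2 SD of Tcaf2. In TolDC the levels per kilobase were at percentile 25.4 for Amelx and 15.7 for Tcaf2, and at percentiles 6.09, 1.87 and 1.76 for Mucl1, Dclk1 and Adra2a.

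In the contrast that chose them, the 5 genes differed in depth of loss. Without LPS, Mucl1 was 131-fold lower in TolDC than in BMDC (95% counting interval 59.9 to 358), Dclk1 47.6-fold (32.6 to 72.5), Adra2a 37.5-fold (18.8 to 87.7), Tcaf2 27.9-fold (23.7 to 33.0) and Amelx 2.95-fold (2.29 to 3.83). These intervals treat reads as independent molecules and cover counting error only. On the fitted log2 scale the differences were -6.95, -5.55, -5.17, -4.79 and -1.55 in the same gene order, and ranked 5, 18, 26, 33 and 647 from the lowest of the 13141 genes. All 5 genes were lower in TolDC with no overlap between groups, as were 32.7% of all genes tested. Nothing is read from that count, since the choice of genes fixed it.

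With LPS the order changed. Mucl1 was 136-fold lower in TolDC with LPS than in BMDC with LPS (95% counting interval 88.8 to 220.3), Adra2a 57.2-fold (29.8 to 126), Amelx 54.0-fold (46.6 to 62.8), Tcaf2 33.1-fold (28.2 to 39.0) and Dclk1 16.0-fold (12.1 to 21.5). Fitted log2 differences were -7.05, -5.76, -5.72, -5.03 and -3.98, with ranks 4, 16, 17, 31 and 83 from the lowest. Again all 5 were lower without overlap, against 34.9% of all genes. Between the LPS states, Amelx had the widest gap in fold, and each Mucl1 fold lay inside the counting interval of the other. The 2 contrasts share no library, but both were seen when the genes were picked, so this gap was not tested.

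**Figure D2:**
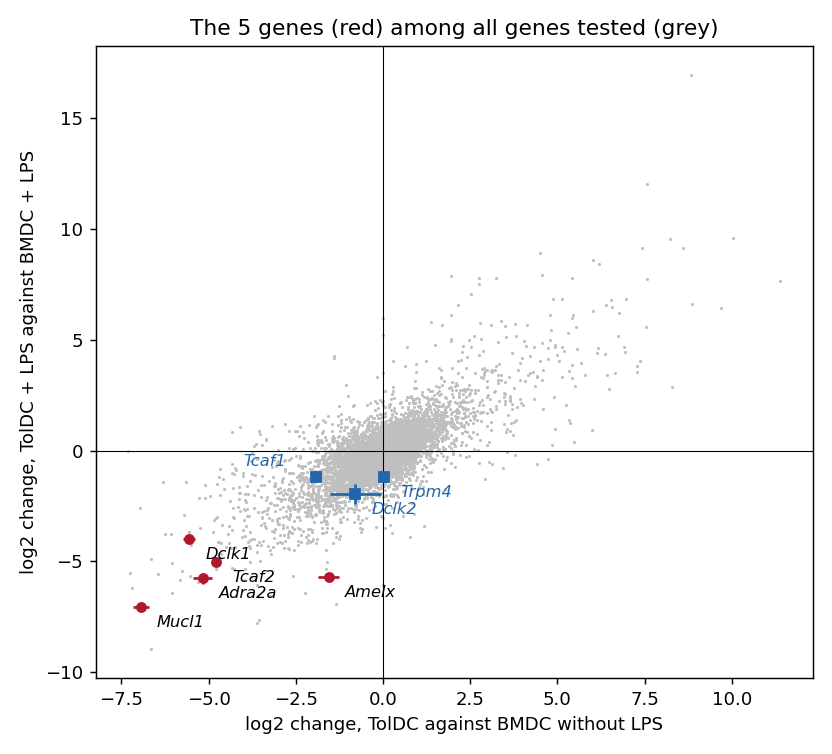
Fitted log2 change of TolDC against BMDC without LPS (horizontal) and with LPS (vertical) for all 13141 genes tested (grey), the 5 genes (red circles) and 3 relatives (blue squares); bars are standard errors. Mucl1, Dclk1, Adra2a and Tcaf2 lie at the low end of both axes, and Amelx lies at -1.55 on the horizontal and -5.72 on the vertical axis.

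LPS moved 3 of the 4 genes tested for it in control cells, and not in one direction. Mucl1 and Adra2a rose in BMDC with LPS, Dclk1 fell, and Tcaf2 was not called. Among all genes tested, 73.2% were called in this contrast (36.7% higher and 36.4% lower) by edgeR's quasi-likelihood test at a Benjamini-Hochberg adjusted p below 0.05, so 3 calls among 4 genes is near the background. Groups did not overlap for 3 of the 4 genes, nor for Amelx, against 74.8% of all genes.

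As a description, Amelx differed between the LPS states of BMDC by a log2 change of 4.98 ± 0.16 (SE), a ratio of levels of 32.1 (95% counting interval 28.3 to 36.5) and the widest of the 5. Mucl1 rose by 1.48 ± 0.096 on the log2 scale (edgeR's quasi-likelihood test, adjusted p = 6.45e-11), with a ratio of 2.82. Dclk1 fell in BMDC with LPS, with a log2 change of -0.93 ± 0.11 (edgeR adjusted p = 2.81e-07) and a ratio of 0.531. All 3 libraries with LPS lay on one side of all 3 without for each of these genes.

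Adra2a rose least, by 0.40 ± 0.15 on the log2 scale (edgeR's quasi-likelihood test, Benjamini-Hochberg adjusted p = 0.0207), a ratio of 1.33 (95% counting interval 1.14 to 1.55). That call was lost without BMDC replicate 1 (0.34, adjusted p = 0.0727), without BMDC with LPS replicate 1 (0.33, adjusted p = 0.0843), without all 4 libraries numbered 1 (0.27, adjusted p = 0.107) and with DESeq2 (0.40, adjusted p = 0.0588). Tcaf2 had a log2 change of -0.04 ± 0.064 (edgeR adjusted p = 0.578) and a ratio of 0.975 (95% counting interval 0.933 to 1.02), with overlapping groups.

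Inside TolDC the LPS states are given without a test, since low TolDC levels chose the genes. The ratio with LPS over without was 2.71 for Mucl1 (95% counting interval 1.06 to 8.22), 1.75 for Amelx (1.34 to 2.30), 1.58 for Dclk1 (0.979 to 2.60), 0.872 for Adra2a (0.299 to 2.60) and 0.822 for Tcaf2 (0.653 to 1.04). Mucl1 and Adra2a rest on 6 to 21 reads over 3 libraries in each TolDC group, and their intervals are wide. Whether the response to LPS differed between TolDC and BMDC was not tested for these genes.

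**Figure D3:**
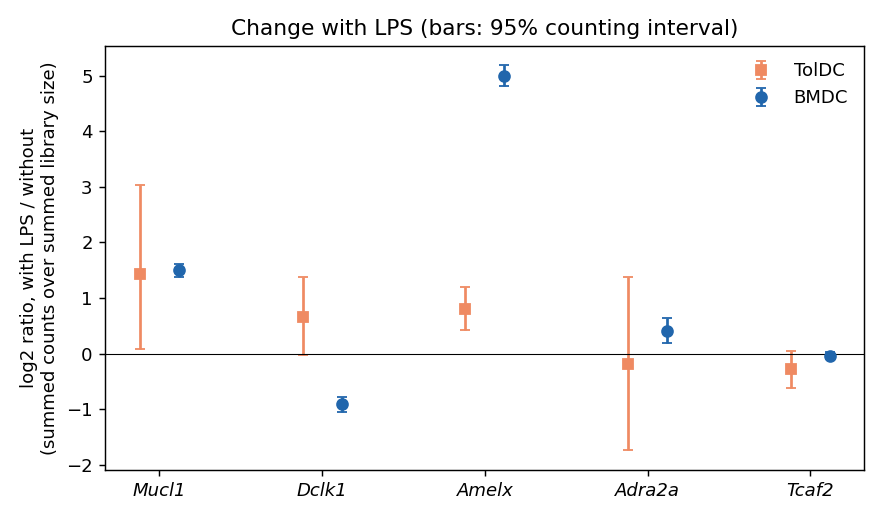
Log2 ratio of levels with LPS over without, in TolDC (orange squares) and BMDC (blue circles), from counts summed over 3 libraries; bars are 95% counting intervals. Amelx stands apart in BMDC at a ratio of 32.1, against 1.75 in TolDC, and Tcaf2 lies near no change in both.

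Families were compared for Tcaf2, Dclk1 and Adra2a. Their relatives were mostly silent, and those tested had smaller fitted changes in TolDC than the member of their own family. Tcaf1, the neighbour and relative of Tcaf2, stood at 15.7 ± 0.998 CPM in TolDC and 59.7 ± 3.76 CPM in BMDC, and with LPS at 12.4 ± 1.71 CPM in TolDC and 28.7 ± 4.70 CPM in BMDC (SD, n = 3 each). It fell in TolDC by 1.93 ± 0.12 on the log2 scale without LPS (edgeR adjusted p = 6.97e-08) and by 1.20 ± 0.13 with LPS (edgeR adjusted p = 5.87e-06). In this contrast 62.4% of all genes were called without LPS (30.4% lower) and 67.9% with LPS (33.7% lower), with 32% and 34.3% higher. In BMDC, Tcaf1 fell with LPS (log2 change -1.07 ± 0.12, edgeR adjusted p = 5.24e-06), where Tcaf2 was not called.

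Trpm8, the channel that Tcaf2 is named for, had no reads in any library, and neither did Tcaf3. Of 10 listed TCAF and TRPM genes other than Tcaf2, 4 were tested. In TolDC without LPS 3 fell and 1 was not called (median log2 change -0.46, against 0.01 over all genes), and with LPS 3 fell and 1 was not called (median -0.71, against 0.02). Trpm4, a calcium-activated cation channel, stood at 19.3 ± 0.641 CPM in TolDC with LPS and 44.3 ± 3.98 CPM in BMDC with LPS (log2 change -1.20 ± 0.076, edgeR adjusted p = 1.02e-10). Without LPS it was not called (0.02 ± 0.091, edgeR adjusted p = 0.852). Trpm2, an oxidant-gated channel, fell in TolDC without LPS (-0.69 ± 0.12, edgeR adjusted p = 0.000652) but was not called with LPS (0.07 ± 0.13, edgeR adjusted p = 0.663). Trpm7 fell by 0.23 in both states (edgeR adjusted p = 0.000816 without LPS and 0.000727 with LPS).

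Of 8 relatives of Dclk1 in the doublecortin family, 2 were tested. Dclk2, the closest kinase with reads, had 7 reads in TolDC and 13 in BMDC over 3 libraries, and with LPS 16 reads in TolDC and 46 in BMDC. It passed the filter only through BMDC with LPS, so its differences from that group are described without a test. Dclk2 was higher in BMDC with LPS than in BMDC (log2 change 1.98 ± 0.49), where Dclk1 fell. It was lower in TolDC with LPS than in BMDC with LPS (-1.96 ± 0.46). Dcdc2b was not called in any of the 3 contrasts (edgeR adjusted p of 0.894 for LPS in BMDC, 0.568 for TolDC and 0.524 for TolDC with LPS). Dclk3 and doublecortin (Dcx) itself had no reads.

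Adra2b, another receptor of the alpha-2 class, had 3 reads in TolDC with LPS and 23 in BMDC with LPS, and did not pass the filter. Adra1a, Adra1b, Adra1d and Adra2c had no reads in any library.

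**Figure D4:**
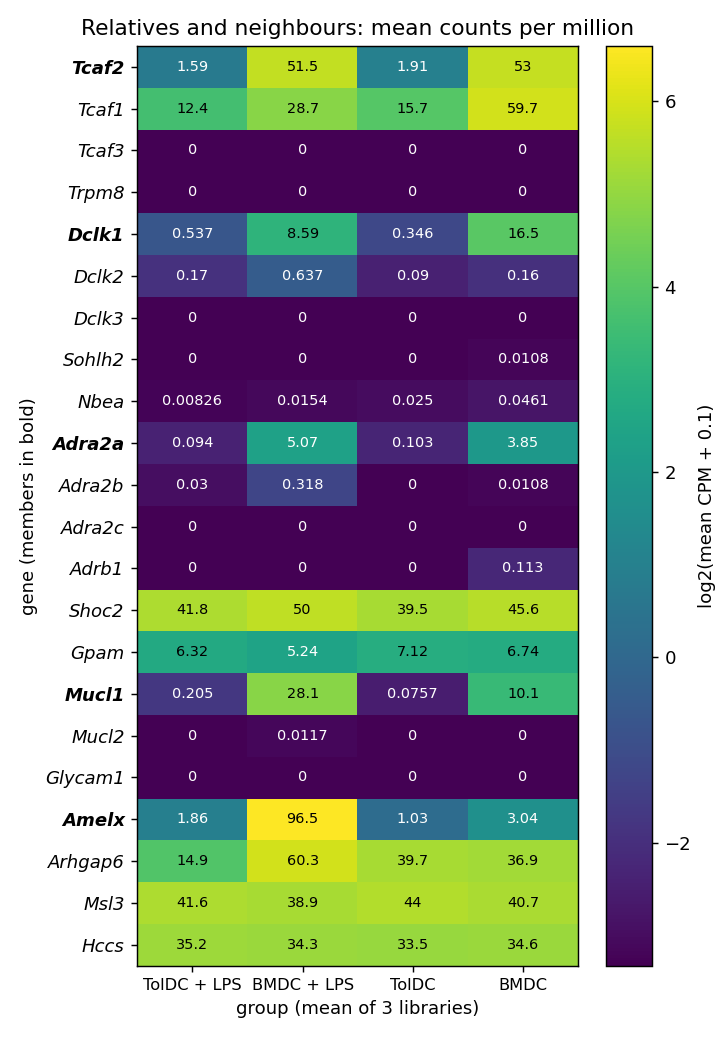
Mean CPM over 3 libraries of the 5 genes (bold), their relatives and the genes next to them; colour is log2(mean CPM + 0.1). Tcaf1 was lower in TolDC than in BMDC in both states (15.7 and 59.7 CPM without LPS), while most other relatives were at or near 0.

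Of 6 tested genes next to the 5, 2 fell, 1 rose and 3 were not called in TolDC, and 3 fell, 1 rose and 2 were not called in TolDC with LPS. The shares called over all genes were 62.4% and 67.9%. Tcaf1 beside Tcaf2, given above, fell in both states. Arhgap6, around Amelx, stood at 39.7 ± 1.48 CPM in TolDC and 36.9 ± 3.84 CPM in BMDC and was not called (log2 change 0.10 ± 0.092, edgeR adjusted p = 0.362). With LPS it was at 14.9 ± 0.937 CPM in TolDC and 60.3 ± 8.01 CPM in BMDC (-2.02 ± 0.097, edgeR adjusted p = 6.23e-10), and LPS raised it in BMDC (0.71 ± 0.090, edgeR adjusted p = 9.76e-06). Amelx had the same direction in both contrasts with BMDC with LPS, the group through which it was mainly picked, so nothing is read from that. Without LPS Amelx was lower in TolDC (-1.55), where Arhgap6 was not called. The next genes on either side, Msl3 and Hccs, changed by at most 0.11 on the log2 scale in any contrast. Msl3 was the gene that rose in TolDC without LPS (0.11 ± 0.043, edgeR adjusted p = 0.0318), a call lost in 10 of 20 alternatives. With the replicate number as a block Msl3 was also called higher in TolDC with LPS (0.10, edgeR adjusted p = 0.0498).

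Shoc2 beside Adra2a fell slightly in TolDC (-0.21 ± 0.046 without LPS, edgeR adjusted p = 0.000562, and -0.26 ± 0.045 with LPS, edgeR adjusted p = 6.03e-05). Gpam on its other side was not called without LPS (0.07 ± 0.093, edgeR adjusted p = 0.522) and rose in TolDC with LPS (0.27 ± 0.096, edgeR adjusted p = 0.0187), a call that was lost with DESeq2 (adjusted p = 0.0853) and without BMDC with LPS replicate 2 (adjusted p = 0.0744) or TolDC with LPS replicate 3 (adjusted p = 0.0567). Glycam1 and Mucl2 beside Mucl1, and Sohlh2 and Nbea beside Dclk1, had at most 4 reads over any group. The 2 genes beside Mucl1 are themselves glandular, and neither was expressed with it.

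Other genes of the same tissues were looked at as lists, which had been drawn up with earlier results of these data known. The background for the counts in each list is the share of all genes called, 62.4% in TolDC and 67.9% in TolDC with LPS. Of 19 listed enamel matrix and ameloblast genes besides Amelx, 4 were tested. In TolDC with LPS 3 fell and 1 rose (median log2 change -1.15, against 0.02 over all genes), and without LPS 3 fell and 1 was not called (median -0.45). Sp6, an ameloblast transcription factor counted among the 3 that fell in TolDC with LPS, passed the filter only through BMDC with LPS. Its differences from that group are therefore described without a test. The log2 change of Sp6 was 5.29 ± 0.39 with LPS in BMDC and -3.89 ± 0.32 in TolDC with LPS. Its level was 0.286 ± 0.114 CPM in TolDC with LPS and 4.47 ± 0.341 CPM in BMDC with LPS (SD, n = 3 each), and without LPS it was not called in TolDC (0.78 ± 0.70, edgeR adjusted p = 0.341). Lamb3 and Fam83h fell less (-1.03 and -1.27 with LPS, edgeR adjusted p = 5.15e-10 and 1.85e-09), and Fam20c, the kinase of secreted proteins, rose (0.53 ± 0.046, edgeR adjusted p = 8.38e-09).

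Of 29 mucin and glandular secretory genes in the tables besides Mucl1, 4 were tested. Csn2, which encodes the milk protein beta-casein, had the direction of Mucl1 in all 3 contrasts. The choice of Mucl1 fixed the direction of Mucl1 in TolDC in both LPS states, but not that of Csn2, which was not chosen by this rule. Csn2 stood at 0.246 ± 0.0973 CPM in TolDC and 2.88 ± 0.377 CPM in BMDC (log2 change -3.55 ± 0.26, edgeR adjusted p = 8.69e-10). With LPS it was at 0.382 ± 0.132 CPM in TolDC and 6.81 ± 0.564 CPM in BMDC (-4.13 ± 0.20, edgeR adjusted p = 2.30e-12), and LPS raised it in BMDC by 1.24 ± 0.16 (edgeR adjusted p = 8.06e-07). Over the list, 2 fell and 2 were not called in TolDC (median -0.89) and 1 fell and 3 were not called in TolDC with LPS (median -1.55). The other gene that fell, Ltf, is a neutrophil granule product as well and varied widely between libraries (67.5 ± 40.6 CPM in TolDC and 324.8 ± 165.5 CPM in BMDC, SD, n = 3 each). Its call in TolDC (log2 change -2.26 ± 0.82, edgeR adjusted p = 0.040) was lost in 11 of 20 alternatives. With the replicate number as a block, Ltf (-1.96, edgeR adjusted p = 1.01e-05) and Muc13 (-1.21, edgeR adjusted p = 9.99e-05) fell in TolDC with LPS too.

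Tuft cell genes moved in both directions. Of 12 tested, 3 rose, 3 fell and 6 were not called in TolDC (median log2 change -0.13), and with LPS 4 rose, 3 fell and 5 were not called (median 0.05). These counts are not above the background of 62.4% of all genes called in TolDC and 67.9% with LPS, so nothing is read from them. Siglecf fell in both (-1.62 ± 0.072, edgeR adjusted p = 8.38e-11, and -3.31 ± 0.094 with LPS, edgeR adjusted p = 3.39e-13), but it also marks eosinophils. Gnat3, the taste G protein, rose in TolDC (1.35 ± 0.12, edgeR adjusted p = 1.40e-08) but was not called in TolDC with LPS (0.26 ± 0.23, edgeR adjusted p = 0.326). Ptgs1, cyclooxygenase-1, fell by 0.89 in TolDC and by 0.98 in TolDC with LPS (edgeR adjusted p = 1.85e-13 and 6.81e-14).

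Around Adra2a, genes of Gi signalling moved in both directions. Of 25 tested, 8 rose, 6 fell and 11 were not called in TolDC (median log2 change -0.02), and 6 rose, 8 fell and 11 were not called in TolDC with LPS (median -0.00). Of all genes, 32% rose and 30.4% fell in TolDC, and 34.3% rose and 33.7% fell with LPS. The counts for Gi signalling are not above that background, and nothing is read from them. Adcy6, an adenylyl cyclase that Gi inhibits, fell by 2.22 ± 0.13 (edgeR adjusted p = 3.54e-11) and by 2.37 ± 0.11 with LPS (edgeR adjusted p = 1.60e-12). The receptor kinases parted: Grk3 fell (-0.88 ± 0.069, edgeR adjusted p = 4.30e-09) and Grk5 rose (0.95 ± 0.050, edgeR adjusted p = 6.80e-12) in TolDC. Of 5 tested genes of catecholamine synthesis and clearance, 1 rose and 2 fell in TolDC without LPS and likewise with LPS. Slc18a1, a vesicular monoamine transporter, fell (-2.58 ± 0.11, edgeR adjusted p = 4.36e-13).

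Across the 12 libraries, the log2 levels of Adra2a and Tcaf2 ran closest together (Pearson r = 0.993), and Amelx stood furthest from the rest (r = 0.606 with Dclk1 and 0.809 with Mucl1). The groups set these values, and depth is shared within a library, so they are descriptions with no p. By the same measure the genes most like Mucl1 were Ramp3 (r = 0.995), Add1 and Idi1, those most like Dclk1 were Ccn3 (r = 0.995), Dhx40 and Aifm3, and those most like Amelx were Pop4 (r = 0.997), Psd3 and Myo1g. Klk1b9 (r = 0.996) and Perp were most like Adra2a, and Serpina3g (r = 0.997), Slc30a4 and Furin most like Tcaf2.

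A high r did not go with a like depth of loss. Add1 (r = 0.994 with Mucl1) stood at 141.7 ± 4.31 CPM in TolDC and 182.7 ± 5.08 CPM in BMDC, and Pop4 at 61.2 ± 0.864 CPM in TolDC and 78.5 ± 1.73 CPM in BMDC (SD, n = 3 each). Ramp3, which modifies peptide hormone receptors, stood at 1.74 ± 0.252 CPM in TolDC and 43.8 ± 0.769 CPM in BMDC, and with LPS at 3.53 ± 0.305 CPM in TolDC and 88.7 ± 3.40 CPM in BMDC (SD, n = 3 each). Klk1b9, a glandular kallikrein, stood at 8.66 ± 1.16 CPM in TolDC and 99.3 ± 2.13 CPM in BMDC. Aifm3 stood at 0.114 ± 0.0316 CPM in TolDC and 3.52 ± 0.312 CPM in BMDC.

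Markers of the tissues in which the 5 genes are best known were mostly missing. Of 13 epithelial markers, 10 were under 1 CPM in every library and the defining Krt8, Krt19 and Cldn3 were at 0. The list summed to 271.7 to 293.7 CPM in TolDC and 291.4 to 318.5 CPM in BMDC, and with LPS to 34.6 to 37.8 CPM in TolDC and 42.5 to 43.9 CPM in BMDC, led by Cdh1. Of the 4 tested, 1 rose, 2 fell and 1 was not called in TolDC, and 1 rose and 3 fell in TolDC with LPS. Epcam fell, at 0.0809 ± 0.0817 CPM in TolDC and 1.98 ± 0.298 CPM in BMDC (log2 change -4.61 ± 0.41, edgeR adjusted p = 1.47e-08), and with LPS at 0.0581 ± 0.0223 CPM in TolDC and 0.648 ± 0.0563 CPM in BMDC (-3.35 ± 0.50, edgeR adjusted p = 9.39e-06). Of 13 neuronal and glial markers, 10 were under 1 CPM throughout and Rbfox3, Snap25, Nefl and Sox10 were at 0.

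Marker sums of other cell types differed with the treatment in both directions. Of 12 fibroblast and stromal markers, 9 were under 1 CPM throughout and Cxcl12 was at 0, and the sum was 12.1 to 15.9 CPM in TolDC and 36.3 to 51.8 CPM in BMDC, and with LPS 16.2 to 22.6 CPM in TolDC and 36.7 to 51.7 CPM in BMDC, led by Thy1. The sum of 14 macrophage and monocyte markers was 2749 to 2827 CPM in TolDC and 6577 to 6709 CPM in BMDC, but with LPS 2893 to 3601 CPM in TolDC and 2194 to 2882 CPM in BMDC. Neutrophil markers summed to 782 to 1309 CPM in TolDC and 798 to 2726 CPM in BMDC, with the libraries numbered 1 the lowest, and with LPS to 830 to 1197 CPM in TolDC and 424 to 1732 CPM in BMDC. Eosinophil markers summed to 207.6 to 353.5 CPM in TolDC and 558 to 672 CPM in BMDC, and with LPS to 91.5 to 187 CPM in TolDC and 145 to 200.5 CPM in BMDC. Erythroid markers, 8 of them under 1 CPM throughout and Slc4a1 at 0, summed to 0.714 to 1.55 CPM in TolDC and 2.43 to 3.79 CPM in BMDC, and with LPS to 1.70 to 2.03 CPM in TolDC and 4.15 to 6.20 CPM in BMDC. Megakaryocyte markers summed to 280.0 to 294.6 CPM in TolDC and 376 to 417 CPM in BMDC, but with LPS to 238 to 244 CPM in TolDC and 167 to 176.5 CPM in BMDC. Endothelial markers were higher with the treatment, at 412.5 to 453.0 CPM in TolDC and 195.5 to 211.9 CPM in BMDC, and with LPS 303.6 to 328.5 CPM in TolDC and 130.2 to 137.1 CPM in BMDC, led by Pecam1, with 7 of 9 under 1 CPM throughout and Cldn5 at 0. T and NK cell markers summed to 72.0 to 96.0 CPM in TolDC and 47.6 to 61.0 CPM in BMDC, and with LPS to 114.3 to 128.9 CPM in TolDC and 78.7 to 87.2 CPM in BMDC. Mast cell and basophil markers summed to 77.8 to 278.1 CPM in TolDC and 32.3 to 117.3 CPM in BMDC, and with LPS to 202.2 to 425.2 CPM in TolDC and 222.3 to 348.0 CPM in BMDC. The remaining lists, plasmacytoid and B cell markers, summed to 125.5 to 129.8 and 1.82 to 3.84 CPM in TolDC and to 148.0 to 149.8 and 1.52 to 2.92 CPM in BMDC, and with LPS to 277.5 to 296.0 and 2.74 to 3.83 CPM in TolDC and to 358 to 402 and 3.94 to 4.59 CPM in BMDC. The part of these in the levels of the 5 genes was not tested.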

How the data were processed

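RNA of 12 libraries in 4 groups of 3 was analysed from the deposited raw counts per gene, whole numbers that the authors made with cutadapt and STAR on mm10 (GRCm38), per the submitters' processing notes, which also name edgeR and limma. The sources used here name no version, setting or annotation. The kit is stranded, per the labels' protocols, and the count column whose total was 35.2 to 37.3 times that of the opposite strand was used. Between 79.3% and 80.6% of reads were assigned to genes; reads with several places (9.34% to 9.85%) were not counted, so levels of near-identical genes are uncertain. Symbols, positions and exon lengths came from GENCODE M21 on the same build (30934 of 31054 identifiers matched).

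filterByExpr on the 4 groups (minimum count 10) left 13141 genes. A quasi-likelihood model with robust dispersions and a mean per group was fitted to all 12 libraries with TMM factors of 0.945 to 1.04 (edgeR 4.0.16, R 4.3.3), after the script was tested on simulated data. P-values were adjusted by Benjamini-Hochberg over all genes within a contrast and called below 0.05. CPM use the TMM-scaled library size, and log2 CPM a prior count of 2. Ratios of summed counts carry exact binomial 95% intervals. The members and gene lists were chosen with earlier results of these data known. Named were the members, their families and neighbours, up to 4 called genes of at least 1 CPM with the largest change from each other list, and the 3 genes most like each member by Pearson r; of the list genes under this rule a part is printed, picked with their values in view, while all those that can be reported were recomputed under the alternatives. The test of whether the TolDC effect differed between LPS states was added after values were seen, for families and neighbours alone; other named genes were only screened for groups moving in opposite directions.

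Alternatives were the count column without regard to strand, RLE factors, DESeq2 1.42.0, limma-voom (limma 3.58.1), no filter, a fit of only the groups compared, the replicate number as a block, each library left out, and the libraries numbered 1 left out. Within the contrasts, same-numbered libraries deviated together in 9 of 9 pairs (r of 0.132 to 0.466), so the replicate numbers in the labels, whose meaning the labels do not give, were taken as pairing; the fit without the block stayed the main one. The change of Amelx with LPS in BMDC, planned as a test, is given as a description. No 2 libraries held identical counts. Some genes of the families and lists are not reported here.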

Additional observations from a re-analysis of the deposited data

Results flagged for a closer look

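The difference between TolDC and BMDC itself differed between the LPS states for these relatives and neighbours, by the edgeR quasi-likelihood test of the difference (log2 change with LPS minus without, Benjamini-Hochberg adjusted over all genes). It was -2.12 ± 0.13 for Arhgap6 (adjusted p = 4.71e-08), -1.22 ± 0.12 for Trpm4 (adjusted p = 1.58e-07), 0.73 ± 0.18 for Tcaf1 (adjusted p = 0.00619) and 0.76 ± 0.18 for Trpm2 (adjusted p = 0.00676).

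From the lists, 6 genes lay on opposite sides in TolDC against BMDC without and with LPS, with groups that did not overlap in either state. The difference between the states was not tested for them. The share of all genes with this pattern was not counted, so nothing is read from their number. With LPS the log2 change was -2.00 for Cxcr2, 0.53 for Fam20c, -1.68 for Irf8, -0.25 for Mbp, 0.79 for Syp and 0.72 for Vwf. Without LPS it was 0.41 for Cxcr2, -0.43 for Fam20c, 0.79 for Irf8, 0.22 for Mbp, -0.91 for Syp and -0.32 for Vwf. Syp was not called in TolDC with LPS (edgeR adjusted p = 0.0684). The calls without LPS were lost in 8 of 20 alternatives for Cxcr2 and in 5 of 20 for Syp.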

How the results depend on the processing

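Over 20 alternatives, the log2 change with LPS in BMDC ran between 1.38 and 1.54 for Mucl1 and -1.08 and -0.84 for Dclk1, each called in 20 of 20, and, untested, 4.85 and 5.11 for Amelx. Tcaf2 ran between -0.11 and 0.01 and was called in 0 of 20 (edgeR adjusted p 0.578 in the main fit, 0.136 to 0.985 over the alternatives, which include DESeq2 and limma-voom). Adra2a ran between 0.27 and 0.45 and was called in 16 of 20. Its call was lost with the 4 libraries numbered 1 left out (0.27, adjusted p = 0.107), with DESeq2 (0.40, adjusted p = 0.0588), and without replicate 1 of BMDC or of BMDC with LPS (0.34 and 0.33); the cause was not tested. For the other named genes, whose changes were recomputed as 4979 values under the alternatives, 155 lost their call and 1 reversed: Adcy4, an adenylyl cyclase, in TolDC against BMDC without LPS had a log2 change of -0.58, but 0.54 with reads counted without regard to strand; the cause was not tested.

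Counts of genes called ran between 9193 and 9969 for LPS in BMDC, 7542 and 8780 for TolDC and 8368 and 9454 for TolDC with LPS. With the replicate number as a block, which pairs the libraries, 9969, 8780 and 9454 genes were called in these contrasts, no call of the named genes was lost, and calls it added for Ltf, Muc13 and Msl3 stand beside those results. Levels of Mucl1 and Adra2a in TolDC rest on 6 to 21 reads a group, which limits any ratio there.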
